A study of Mus musculus with 4 samples.

Results

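The genes described here are 7 of the 32286 gene features counted in mouse popliteal vessels: Mbp (ENSMUSG00000041607), Pmp22 (ENSMUSG00000018217), Mal (ENSMUSG00000027375), Prx (ENSMUSG00000053198), Mag (ENSMUSG00000036634), Ncmap (ENSMUSG00000043924) and Pllp (ENSMUSG00000031775). They were chosen by symbol as myelin protein genes, and each matched 1 feature in each of 3 single-cell libraries, which count RNA molecules by unique molecular identifiers (UMIs). All mice were adults from a cross of a Wt1 EGFP/Cre line with the Ai9 tdTomato reporter line, and all were given Evans blue dye in the footpad; the study's title concerns lymphatic muscle cells, and no group was a treatment. Each of 2 libraries of popliteal lymphatic vessels, PLV1 and PLV2 here, came from its own pool of 2 mice, with a digestion of 30 min in collagenase I, Dispase II, DNase and Liberase. The mixed library came from another 2 pooled mice and joined lymphatic with blood vessels, digested for 60 min without DNase and Liberase; its antibody tags did not separate the vessels here, so it is 1 sample of both. Vessel, digestion, mice and software version cannot be told apart between the mixed and the PLV libraries. Values below follow the order PLV1, PLV2, mixed library unless another is given.

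Myelin is the layered membrane that Schwann cells wrap around large axons of peripheral nerves, so that impulses jump from node to node. A myelinating Schwann cell serves 1 stretch of 1 axon, whereas non-myelinating (Remak) Schwann cells hold bundles of thin axons without wrapping them. The transcription factors SOX10 and EGR2 are the known drivers of peripheral myelin genes, and an excess or loss of PMP22 underlies common inherited neuropathies.

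After filtering, PLV1 held 1909 cells, PLV2 held 516 and the mixed library held 994, with a median of 3372 to 6162 UMIs per cell. Kept cells of different libraries shared 0 barcodes. Clusters were called Schwann-like from 14 markers that include none of the 7 members, and all members and other listed myelin genes were held out of the clustering. Schwann-like cells numbered 234 in PLV1 (12.3% of kept cells, 95% Clopper-Pearson interval 10.8 to 13.8), 52 in PLV2 (10.1%, 7.62 to 13.0) and 38 in the mixed library (3.82%, 2.72 to 5.21). Sox10, the Schwann lineage factor and 1 of the markers that chose these clusters, stood at 495, 509 and 345 counts per 1000000 UMIs (CPM) in Schwann-like cells, and at 0.439, 0 and 0 CPM in all other kept cells. Intervals here cover counting error only.

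Promoter windows of Mag and Pmp22 are shown first, because SOX and EGR family factors are known regulators of myelin genes and because Pmp22 has alternative first exons that counts per gene cannot tell apart. The sequences are the 250 bases before a transcript start, from RefSeq on GRCm38.p6, in the direction of transcription. The Mag window is chr7:30914923-30915172 on the minus strand, and the Pmp22 windows are chr11:63128732-63128981 and chr11:63131207-63131456 on the plus strand. Capitals mark a match to the motif searched for the SOX family.
Mag: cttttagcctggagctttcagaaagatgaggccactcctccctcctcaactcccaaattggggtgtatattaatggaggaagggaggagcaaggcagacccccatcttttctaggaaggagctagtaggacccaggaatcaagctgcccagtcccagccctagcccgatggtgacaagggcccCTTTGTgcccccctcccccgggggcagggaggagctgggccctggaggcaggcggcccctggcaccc
Pmp22, first start: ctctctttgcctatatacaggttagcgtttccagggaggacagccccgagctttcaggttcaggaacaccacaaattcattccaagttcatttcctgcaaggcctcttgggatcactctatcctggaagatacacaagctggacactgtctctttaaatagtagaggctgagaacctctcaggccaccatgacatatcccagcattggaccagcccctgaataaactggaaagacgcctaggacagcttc
Pmp22, second start: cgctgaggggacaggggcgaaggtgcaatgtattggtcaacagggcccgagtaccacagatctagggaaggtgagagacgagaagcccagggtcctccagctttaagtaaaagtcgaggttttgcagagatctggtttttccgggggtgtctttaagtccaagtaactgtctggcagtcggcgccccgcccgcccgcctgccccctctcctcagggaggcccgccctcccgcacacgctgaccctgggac

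The search covered 300 bases (250 before to 50 after a start) of the 12 RefSeq windows of Pmp22, Mal, Prx, Mag, Ncmap and Pllp, several of which overlap, on both strands. ACAAAG (SOX family) was found in 2 of the 3 Mag windows, which overlap and share the same match, on the strand opposite to transcription, and in no window of the other 5 genes. Of all 32851 promoter windows, 6147 (18.7%) hold it. GCGNGGGCG (EGR family) was found in none of the 12 windows and in 1824 (5.55%) of all windows. These letters describe the windows only, and distant enhancers were not searched. On GRCm38, Mag spans chr7:30899175-30914922, Prx chr7:27499305-27520041, Pmp22 chr11:63128982-63159547, Mal chr2:127633226-127656695, Ncmap chr4:135369576-135398240 and Pllp chr8:94674895-94696242.

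All 7 members were higher in Schwann-like cells than in the mean of the 5 other classes named in every library (muscle-like, fibroblast-like, blood endothelial-like, lymphatic endothelial-like and pericyte-like), and higher than in each of these classes taken singly. Over all genes tested, 15.3% were higher in Schwann-like than in muscle-like cells, 15.2% than in fibroblast-like, 16.0% than in blood endothelial-like, 17.0% than in lymphatic endothelial-like and 12.6% than in pericyte-like cells. The test was edgeR's quasi-likelihood test on UMIs summed per library and class with the library as a block, and of the 10503 genes tested 16.2% were higher and 16.5% lower in Schwann-like cells at an adjusted p under 0.05. Mal, Prx, Mag, Ncmap and Pllp passed the filter on low counts through the Schwann-like sums alone, so they had to differ; Mbp and Pmp22 passed it without them. The cells were classed by other genes of the same libraries, and the p-values measure only how a difference repeats across 3 libraries. Levels of different genes are not ranked here.

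Mbp encodes myelin basic protein, which holds the inner faces of the myelin membrane together. In Schwann-like cells it stood at 16569, 11684 and 6267 CPM. In all other kept cells it stood at 25.6, 17.9 and 8.11 CPM in the same order. The groups did not overlap, as was the case in this direction for 17.0% of the 10503 genes tested. The log2 difference from the mean of the other classes was 10.34 (SE 0.29, edgeR adjusted p = 5.2e-16). Schwann-like cells held 97.1%, 96.9% and 92.5% of all Mbp UMIs.

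Pmp22 encodes a small membrane protein of compact myelin that many other cells make at a lower level. It stood at 16135, 12135 and 13044 CPM in Schwann-like cells, against 213, 150 and 236 CPM in all other kept cells. The log2 difference from the mean of the other classes was 5.98 (SE 0.12, edgeR adjusted p = 4.6e-18). Of the 7 members it had the largest part of its UMIs outside Schwann-like cells: these held 79.7%, 79.5% and 46.8% of Pmp22 UMIs, where for each other member they held 91.4% or more in every library. The mixed library, with the lowest of these values, also had the lowest share of Schwann-like cells (3.82%).

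The 5 remaining members stood below 6 CPM in the sum of all other cells in every library. Mal, a proteolipid of membrane sorting, stood at 2551, 2343 and 4017 CPM in Schwann-like cells and at 3.08, 2.78 and 1.05 CPM in the others. Prx encodes periaxin, which links the outermost myelin layer to the dystroglycan complex, and stood at 2376, 2311 and 1405 CPM against 5.49, 5.56 and 1.57 CPM. Ncmap, a membrane protein of non-compact myelin, stood at 1613, 1313 and 1659 CPM against 0.989, 1.24 and 0 CPM.

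Pllp, which encodes the proteolipid plasmolipin of the MAL family, stood at 848, 727 and 526 CPM against 0.769, 0.618 and 0.784 CPM. Mag, an adhesion protein of the membrane that faces the axon, had few UMIs: 155, 42 and 24 in Schwann-like cells (328, 270 and 197 CPM) against 6, 1 and 0 in all other kept cells. For Ncmap and Mag in the mixed library the 0 counts of other cells, over 7649052 UMIs, allow up to 0.392 CPM each (3 counts). For each of the 7 members the lowest Schwann-like value lay above the highest value of the other cells (17.0% of all genes tested), which the filter makes likely for the 5 that passed it through the Schwann-like sums. The highest level of Prx in another named class was 47.6 CPM, from 5 UMIs in the 15 perineurial-like cells of PLV1.

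**Figure D1:**
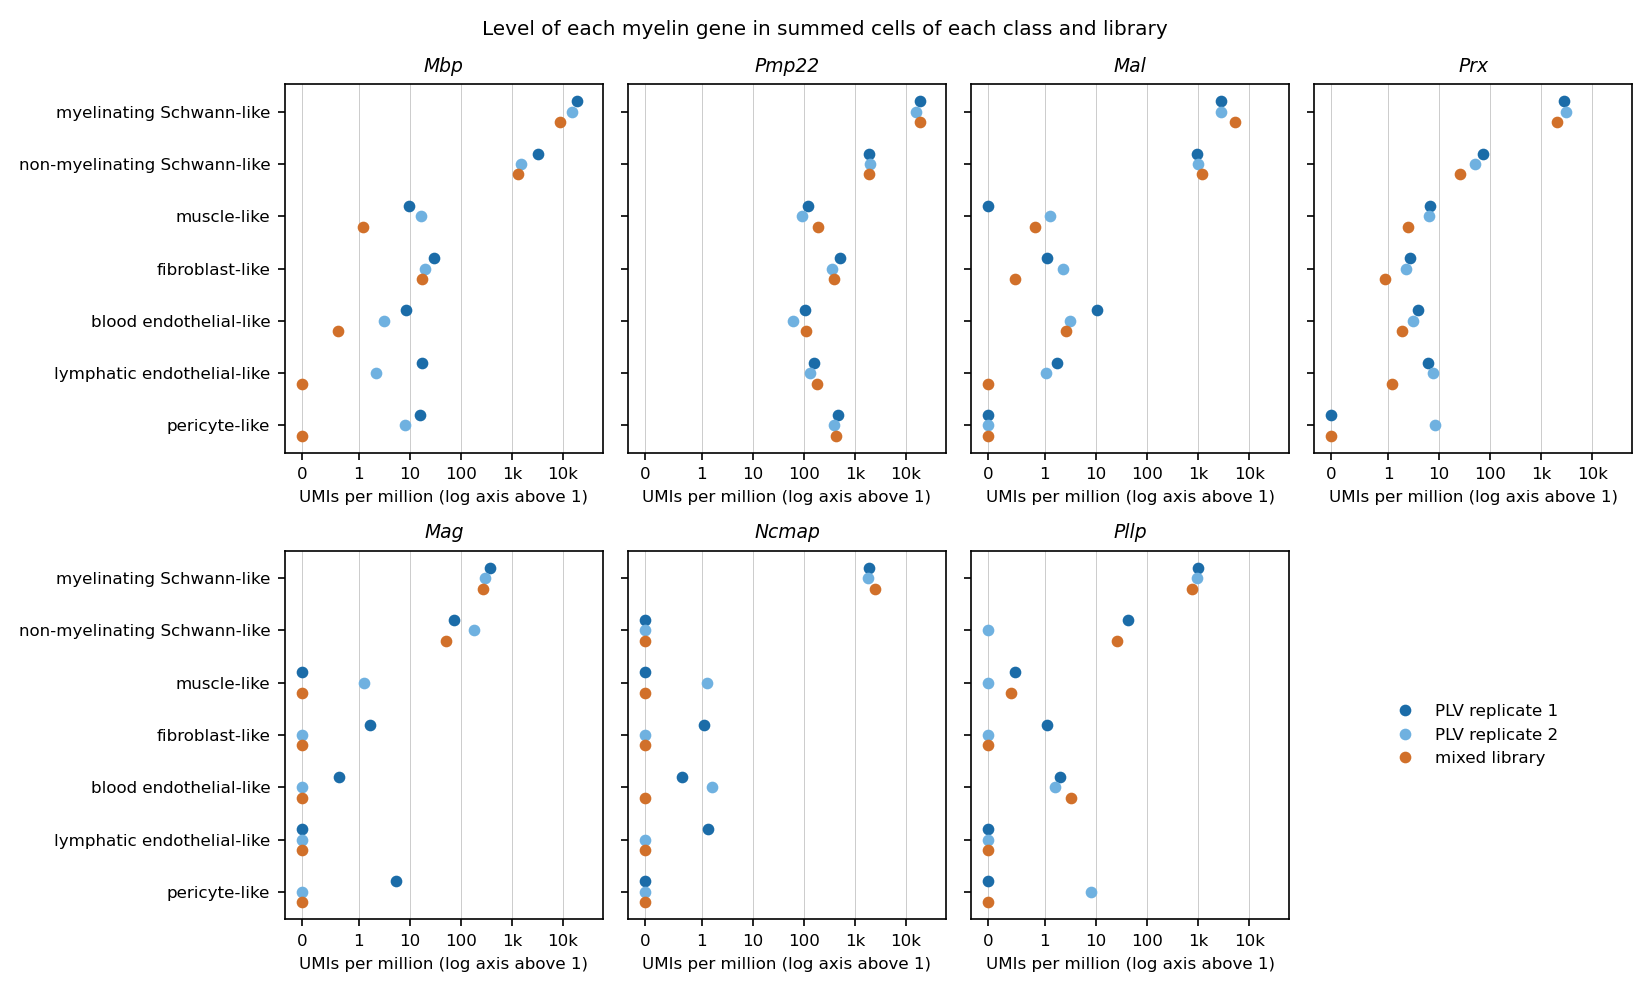
CPM (horizontal, log scale above 1, linear below) of each myelin gene in the summed cells of 7 classes (vertical), 1 point per library, with Schwann-like cells split into myelinating and non-myelinating. Pmp22 keeps 60.0 to 500 CPM in the 5 classes other than Schwann-like cells, and Mbp reaches at most 29.4 CPM there.

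Among the 5 other classes named in every library, Pmp22 was highest in fibroblast-like cells (500, 359 and 391 CPM in the 3 libraries) and pericyte-like cells (455, 384 and 430 CPM). These neighbours did not differ past the threshold (log2 difference 0.42, SE 0.20, edgeR adjusted p = 0.15), in a comparison that called 23.8% of all genes. Lymphatic endothelial-like cells (157, 134 and 176 CPM) and muscle-like cells (121, 93.2 and 190 CPM) came next and also did not differ past it (log2 difference 0.16, SE 0.19, edgeR adjusted p = 0.55; 42.3% of genes called). Pericyte-like cells were above lymphatic endothelial-like cells (the lymphatic endothelial-like minus pericyte-like log2 difference was -1.29, SE 0.20, edgeR adjusted p = 5.4e-05; 28.2% of genes called). The muscle-like minus pericyte-like difference was -1.45 (SE 0.20, edgeR adjusted p = 6.8e-05; 12.3% of genes called). Fibroblast-like cells were above lymphatic endothelial-like cells by 1.71 (SE 0.20, edgeR adjusted p = 6.5e-07; 37.4% of genes called) and above muscle-like cells by 1.87 (SE 0.20, edgeR adjusted p = 2.4e-07; 39.0% of genes called) on the log2 scale.

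Classes not named in every library were not tested: Pmp22 stood at 434 CPM in mast-like cells of PLV1 (16 UMIs), at 249.3 and 40.0 CPM in macrophage-like cells and at 162 and 228 CPM in perineurial-like cells of PLV1 and the mixed library. It had 0 UMIs in T or NK-like cells of PLV1 (126.8 CPM in the mixed library, from 8 UMIs), and stood at 41.6 CPM in B-like and 104.6 CPM in keratinocyte-like cells of PLV1.

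Blood endothelial-like cells had the lowest Pmp22 of the 5 classes, with 106, 60.0 and 108 CPM. They were below lymphatic endothelial-like cells (log2 difference -0.77, SE 0.20, edgeR adjusted p = 0.0074; 21.2% of genes called) and below muscle-like cells (log2 difference -0.61, SE 0.20, edgeR adjusted p = 0.019; 40.3% of genes called). The differences from fibroblast-like (-2.48, SE 0.20, edgeR adjusted p = 8.2e-09; 37.1% of genes called) and pericyte-like cells (-2.06, SE 0.21, edgeR adjusted p = 8.2e-07; 23.8% of genes called) were larger. After each cell was thinned to 1500 UMIs, 51.9%, 44.3% and 38.8% of fibroblast-like cells had a Pmp22 UMI. In lymphatic endothelial-like cells the shares were 18.2%, 15.2% and 29.2%. Unthinned, they were 78%, 62.1% and 78.3% of fibroblast-like cells at median depths of 4057, 4225 and 6914 UMIs, and 49%, 57.1% and 60.4% of lymphatic endothelial-like cells at 3498, 6924.5 and 4959 UMIs.

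For Mbp, fibroblast-like cells (29.4, 19.9 and 17.5 CPM, from 54, 9 and 37 UMIs) stood above blood endothelial-like cells (8.42, 3.16 and 0.635 CPM; blood endothelial-like minus fibroblast-like log2 difference -2.89, SE 0.63, edgeR adjusted p = 0.00096). They also stood above lymphatic endothelial-like cells (log2 difference 2.05, SE 0.56, edgeR adjusted p = 0.0061) and muscle-like cells (2.00, SE 0.55, edgeR adjusted p = 0.0063). Fibroblast-like clusters that also had 2 or more Schwann markers at least 2-fold above other cells were those of 129 and 41 cells in PLV1 and of 14 cells in PLV2, and they held 28, 2 and 1 of these Mbp UMIs. Fibroblast-like cells with UMIs of 3 or more members numbered 2, 0 and 1 and held 6, 0 and 11 of the Mbp UMIs. What part these cells have in the differences was not tested. Prx had 5, 1 and 2 UMIs in the fibroblast-like sums, beside the 54, 9 and 37 of Mbp. Schwann-like cells held 1124, 359 and 171 Prx UMIs beside 7838, 1815 and 763 of Mbp.

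Mal and Pllp rested on few UMIs outside Schwann-like cells, 28, 9 and 8 for Mal and 7, 2 and 6 for Pllp. Of these, blood endothelial-like cells held 16, 2 and 4 Mal UMIs (10.4, 3.16 and 2.54 CPM) and 3, 1 and 5 Pllp UMIs (1.94, 1.58 and 3.17 CPM). In PLV2 the unnamed clusters held 4 of the 9 Mal UMIs. Lymphatic endothelial-like cells had 4, 1 and 0 Mal UMIs and 0 Pllp UMIs in every library.

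Near-empty droplets give the RNA that was free in the suspension. In the mixed library, whose deposited matrix is unfiltered, the 185412 droplets with 1 to 49 gene UMIs held 121 Mbp, 126 Pmp22, 19 Mal, 15 Prx, 12 Ncmap, 3 Pllp and 0 Mag UMIs, among 937570 in all. The deposited PLV matrices are already filtered, so their droplets were not analysed here; their haemoglobin-dominated barcodes held 10 Mbp UMIs in PLV1 and 2 in PLV2.

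Myelinating and non-myelinating cells were then compared. Schwann-like cells were clustered again within each library without the listed myelin genes, and sub-clusters were named from markers that include no member. The sub-clusters named myelinating held 185 cells in PLV1, 35 in PLV2 and 25 in the mixed library, and those named non-myelinating held 49, 17 and 13 (20.9%, 32.7% and 34.2% of Schwann-like cells). In PLV1 the myelinating cells form 3 sub-clusters that were named by their markers relative to the non-myelinating sub-cluster alone; among the 10 leading genes, the sub-cluster of 93 cells has no myelinating marker and that of 51 cells has Egr2. Non-myelinating sub-clusters were led in every library by Scn7a and Apoe.

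All 7 members were higher in the myelinating cells, where 20.4% of the 1357 genes tested were higher and 19.7% lower at an edgeR adjusted p under 0.05. Prx, Mag, Ncmap and Pllp passed the low-count filter through the myelinating sums alone, so they had to differ; Mbp, Pmp22 and Mal passed it without them. Where both kinds had counts, the ratio of the levels ranged from 1.68 (Mag in PLV2) to 81.5 (Prx in the mixed library); Ncmap in every library and Pllp in PLV2 have lower bounds only.

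Ncmap was at 0 UMIs in the non-myelinating cells of all 3 libraries and had 763, 204 and 202 UMIs in the myelinating cells (1891, 1756 and 2454 CPM). Against a floor of 3 counts per library it was at least 43.9-fold, 22.9-fold and 32.3-fold higher in myelinating cells of the 3 libraries. Prx stood at 2773, 3072 and 2066 CPM in myelinating cells and at 71.8, 51.1 and 25.4 CPM (5, 2 and 1 UMIs) in non-myelinating cells. The Prx ratio was 38.6 in PLV1 (95% counting interval 16.5 to 119), 60.1 in PLV2 (16.5 to 498) and 81.5 in the mixed library (14.4 to 3236). Pllp had 398, 113 and 63 UMIs in myelinating cells and 3, 0 and 1 in non-myelinating cells; the ratio was 22.9 in PLV1 (7.77 to 111), at least 12.7 in PLV2 and 30.2 in the mixed library (5.22 to 1211).

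Pmp22 stood at 18596, 15551 and 18395 CPM in myelinating and at 1868, 1993 and 1876 CPM in non-myelinating cells of the 3 libraries. These are ratios of 9.95, 7.80 and 9.80 (log2 difference 3.34, SE 0.27, edgeR adjusted p = 5.5e-13). The non-myelinating level of Pmp22 hardly moved between libraries and was still above the 359 to 500 CPM of fibroblast-like cells, a difference that was not tested. Mbp stood at 18876, 15103 and 8651 CPM against 3190, 1533 and 1293 CPM, which are ratios of 5.92, 9.85 and 6.69 (log2 difference 2.99, SE 0.26, edgeR adjusted p = 3.4e-12).

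Mal had the smallest step of the members with enough counts in both kinds. It stood at 2830, 2797 and 5382 CPM in myelinating and at 934, 997 and 1166 CPM in non-myelinating cells, which are ratios of 3.03, 2.81 and 4.61 (log2 difference 1.91, SE 0.21, edgeR adjusted p = 1.4e-09). After thinning to 1500 UMIs, 80%, 66.7% and 81.8% of non-myelinating cells had a Mal UMI, against 0%, 1.52% and 0% of lymphatic endothelial-like cells. Median depths before thinning were 1236, 1829 and 2608 UMIs in the non-myelinating cells and 3498, 6924.5 and 4959 in the lymphatic endothelial-like cells.

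Mag rested on 5, 7 and 2 UMIs in non-myelinating cells (71.8, 179 and 50.7 CPM) against 150, 35 and 22 in myelinating cells (372, 301 and 267 CPM). Its ratio was 5.17 in PLV1 (2.17 to 16.2), 1.68 in PLV2 (0.737 to 4.49) and 5.27 in the mixed library (1.30 to 46.2), so the counting interval of PLV2 includes no difference. The fitted log2 difference over the libraries was 1.90 (SE 0.39); as Mag passed the filter through the myelinating sums alone, no test is read from it.

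In the non-myelinating sums Ncmap was at 0 UMIs in every library and Prx at 5, 2 and 1, beside 222, 60 and 51 Mbp UMIs in the same cells. The myelinating to non-myelinating ratios of Mbp, Pmp22, Mal and Mag were smaller than those of Prx in every library. Whether RNA of myelinating cells contributed to the non-myelinating sums was not tested.

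**Figure D2:**
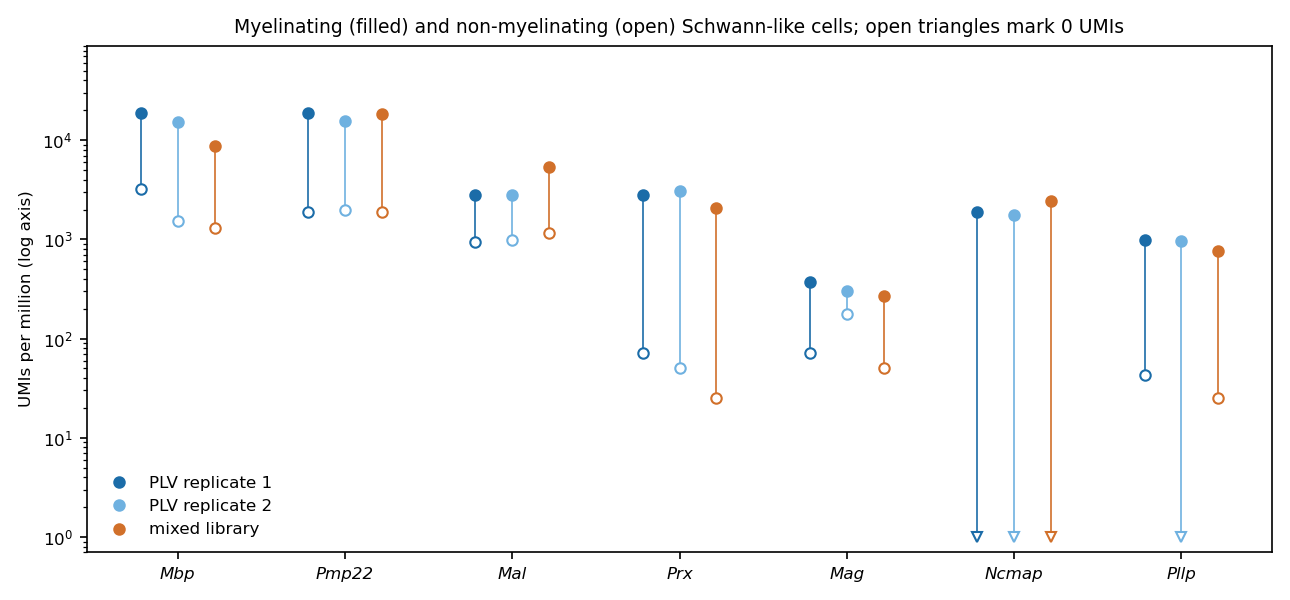
CPM (vertical, log scale) in myelinating (filled) and non-myelinating (open) Schwann-like cells for the 7 members, 1 line per library; triangles at the bottom mark 0 UMIs. Levels of 0 are drawn at 1 CPM, so the lengths of the Ncmap lines (0 UMIs in the non-myelinating cells) and of the Pllp line of PLV2 are not measured steps. Mal and Mag have the shortest lines.

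Co-detection was counted in single cells. Thinned to 1500 UMIs, 137 of 142 Schwann-like cells in PLV1 had UMIs of 3 or more members (96.5%, 95% interval 92.0 to 98.8), as had 34 of 38 in PLV2 (89.5%, 75.2 to 97.1) and 25 of 29 in the mixed library (86.2%, 68.3 to 96.1). The shallower Schwann-like cells left out numbered 92, 14 and 9. Among all other kept cells the same was true of 2 of 1380, 1 of 363 and 0 of 852, and the last allows a share of up to 0.352% (3 cells). The share of Schwann-like cells depends on the draw: 5 other random draws, added after these values were seen, gave a PLV mean of 90.7% to 95.3% and a mixed value of 82.8% to 86.2%.

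Every thinned myelinating cell had 3 or more members, with a median of 6 in each library, and the non-myelinating cells had a median of 3. The combination in a non-myelinating cell was mostly Mbp, Pmp22 and Mal: of the 20 cells of PLV1, 90% had Mbp, 95% had Pmp22 and 80% had Mal, while 10% had Prx, 5% had Mag and 0% had Ncmap or Pllp. In the 122 myelinating cells of that library 100% had Mbp and Pmp22, 96.7% had Mal, 96.7% had Prx, 90.2% had Ncmap, 76.2% had Pllp and 40.2% had Mag.

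**Figure D3:**
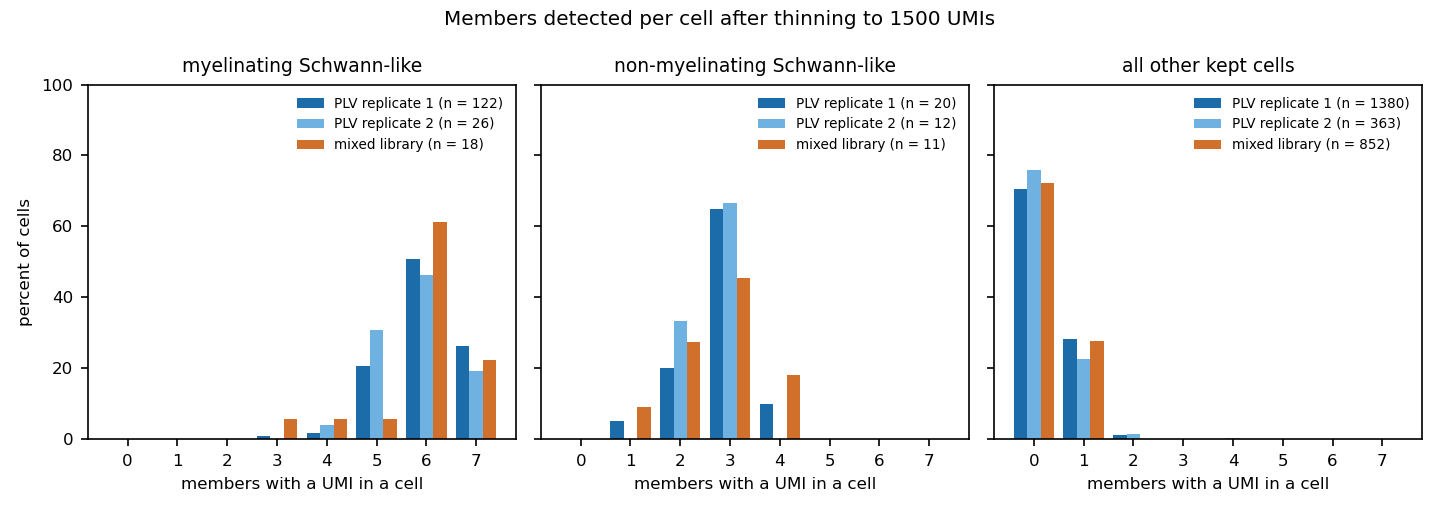
Percent of cells (vertical) by the number of the 7 members with a UMI in a cell thinned to 1500 UMIs (horizontal), for myelinating, non-myelinating and all other kept cells, 1 bar colour per library. Myelinating cells peak at 6, non-myelinating cells at 3 and other cells at 0.

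For pairs of members, the number of cells with both was divided by the number that the single shares give. In myelinating cells this ratio is 1 by construction for 11, 15 and 11 of the 21 pairs, since a member of the pair was detected in every cell. Over the remaining 10, 6 and 10 pairs it ranged from 0.937 to 1.06 in PLV1 (122 cells), 0.918 to 1.03 in PLV2 (26 cells) and 0.857 to 1.10 in the mixed library (18 cells). Over all Schwann-like cells of a library, which join both kinds, the highest ratios were 1.21 (Mag and Ncmap), 1.46 (Prx and Ncmap) and 1.71 (Ncmap and Pllp). Pearson's r of log counts across the same cells had a median over pairs of 0.35, 0.54 and 0.61 in all Schwann-like cells and of 0.05, 0.07 and 0.14 in the myelinating cells alone. These are descriptions across cells that share a library and a fixed depth.

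Mbp and Pmp22 spread widely over cells: of 1500 UMIs a myelinating cell of PLV1 held 5 to 52 Mbp UMIs (median 24) and 8 to 64 Pmp22 UMIs (median 25). In the mixed library Mbp had a median of 12.5 and Pmp22 of 23.5.

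Genes most like the mean of the 7 members across Schwann-like cells included, in order, Drp2 (mean r over the 3 libraries 0.72), Secisbp2l (0.71), Cd9 (0.67), Ndrg1 (0.58), Arhgap19 (0.55), Qk (0.54), Ugt8a (0.53), Maf (0.53) and Cldn19 (0.51), out of 1672 genes compared. Across 27 sums of a class in a library the order was Cldn19, Sox10, Sox2, D430041D05Rik, B230206H07Rik, Cadm2, Mlip, Foxd3, Kcna1 and Smco3 (r from 0.996 to 0.993, 12403 genes compared), a measure set by the contrast of Schwann-like with other sums. Drp2, Ugt8a, Cldn19, Sox10, Sox2, Cadm2, Foxd3 and Kcna1 are also markers that named the cells.

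In the PLV libraries depth moved with the level of Mbp in myelinating cells. In PLV1 Mbp stood at 33782 CPM (95% Poisson interval 31506 to 36179) in the 31 cells with under 1000 UMIs, at 16859 in the 96 cells with 1000 up to 2500 and at 18755 in the 58 deeper cells. In PLV2 it stood at 41370, 28218 and 13149 CPM, with 5, 5 and 25 cells. In the mixed library it stood at 13897, 9885 and 8125 CPM, with 5, 7 and 13 cells. The first of these rests on 48 UMIs, and its interval (10246.5 to 18425) overlaps that of the next (8265 to 11730). Medians over single cells were 22688, 15738 and 17589 CPM of Mbp in PLV1 and 35242, 15774 and 12775 CPM in PLV2. In the mixed library they were 8343, 10127 and 8412 CPM, so its typical shallow cell was not higher. Pmp22 went the other way, with 15528, 16889 and 20275 CPM in PLV1, 2615, 14318 and 16154 CPM in PLV2 and 12449, 15998 and 19193 CPM in the mixed library. Mal also was lower in the shallow cells of the PLV libraries (1569, 2637 and 3124 CPM, and 951, 2085 and 2920 CPM). The shallow cells of the PLV libraries had a median of 5.31% and 8.27% mitochondrial UMIs, against 2.96% and 3.12% in the deepest; what part this has in the Mbp levels was not tested.

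**Figure D4:**
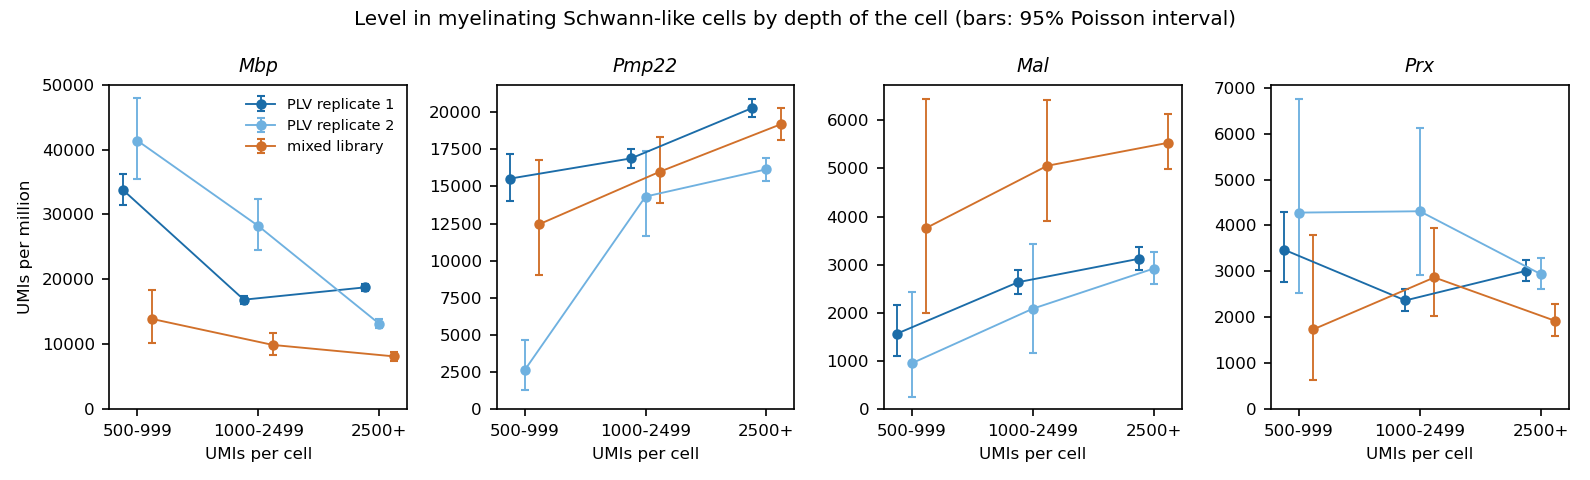
CPM (vertical) of Mbp, Pmp22, Mal and Prx in myelinating Schwann-like cells by UMIs per cell (horizontal), 1 line per library with 95% Poisson intervals. In summed cells Mbp is highest under 1000 UMIs in every library (33782, 41370 and 13897 CPM). In the mixed library this rests on 48 UMIs of 5 cells, with an interval that overlaps that of the next depth. Mal is higher in the mixed library than in the PLV libraries at each depth (3764, 5056 and 5534 CPM).

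Within the myelinating cells of PLV1, the only library with several such sub-clusters, Pmp22 ranged from 12990 to 26574 CPM. The sub-cluster of 41 cells led by Lox, Apod, Pla2g7 and Pmp2 had Pmp22 at 26574 CPM. The sub-cluster of 51 cells led by Irf1, Btg2 and the immediate-early gene Junb had Pmp22 at 12990 CPM, and the 93 remaining cells, led by the fibroblast genes Fn1, Dcn and Dpt among others, had 16886 CPM. Mbp varied less (16531, 19153 and 20687 CPM in the same order). These are single sums of 1 library with no replicate.

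The mixed library was compared with the PLV libraries in Schwann-like cells by edgeR, assuming that the lone mixed library, which has no replicate, varies like the 2 PLV libraries, from which all of the spread is estimated. Of the 7 members 2 passed the threshold, beside 3.95% of the 3722 genes tested. Mal was higher in the mixed library (log2 difference 0.88, SE 0.26, edgeR adjusted p = 0.024) and Mbp lower (-1.0, SE 0.28, edgeR adjusted p = 0.015). The Mal level of the mixed library (4017 CPM) lay above both PLV levels (2551 and 2343), and its Mbp level (6267) below both (16569 and 11684). Within the myelinating cells alone, a comparison added after these values were seen, Mal kept the call (5382 against 2830 and 2797 CPM; log2 difference 1.18, SE 0.25, edgeR adjusted p = 0.00051; 3.38% of 2659 genes called) and Mbp lost it (8651 against 18876 and 15103 CPM; -0.73, SE 0.26, edgeR adjusted p = 0.10). With DESeq2 on all Schwann-like cells neither gene passed (DESeq2 adjusted p = 0.999 for Mal and 0.83 for Mbp), and 2 of 3722 genes did.

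A single cell of the mixed library held 103 of its 443 myelinating Mal UMIs; without it the level was 5021 CPM, still above both PLV libraries. The other members did not pass: log2 differences were -0.57 (SE 0.28) for Prx, -0.45 (0.38) for Mag, -0.42 (0.31) for Pllp, 0.35 (0.28) for Ncmap and 0.06 (0.26) for Pmp22, with edgeR adjusted p from 0.30 to 0.93. Egr2, the transcription factor of the myelin program and also an immediate-early gene, was lower in the mixed library (log2 difference -1.70, SE 0.36, edgeR adjusted p = 0.00054), a call that DESeq2 did not make (-1.67, SE 0.55, DESeq2 adjusted p = 0.69).

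**Figure D5:**
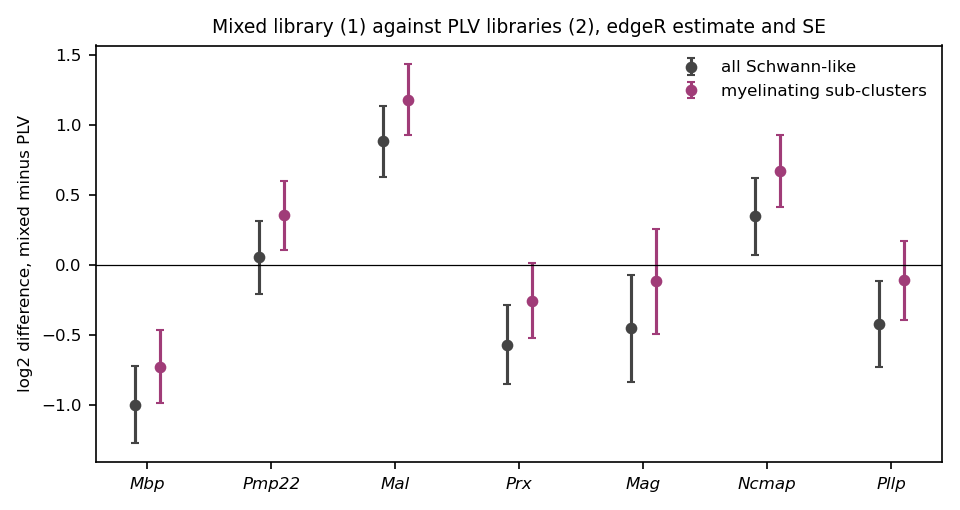
Log2 difference (vertical) of the mixed library minus the 2 PLV libraries for each member, as edgeR's estimate with its SE, in all Schwann-like cells and in the myelinating sub-clusters alone. Mal is higher in both comparisons (0.88 and 1.18), Mbp lower (-1.0 and -0.73), and the intervals of 1 SE of Pmp22 in all Schwann-like cells span 0.

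Other myelin genes give the setting. Of the 15 other peripheral myelin proteins, 15 were higher in Schwann-like cells than in the other classes (median log2 difference 9.32, against -0.12 over all genes, of which 16.2% were higher). Of these, 5 (Cnp, Dag1, Cd9, Itgb4 and Itga6) passed the filter on low counts without the Schwann-like sums; the others had to differ. Leaving out those that had named the cells, 13 of 13 were higher (median 8.89). Drp2, the partner of periaxin in the dystroglycan complex (10.63), Gldn, which gathers channels at nodes (10.10), and Nfasc, a node and paranode adhesion protein (8.89), showed large log2 differences. All 13 genes of myelin lipid synthesis were higher (median 3.03, beside the same 16.2% of all genes), and 10 of them passed the filter without the Schwann-like sums. Those that passed through the Schwann-like sums include Fa2h (log2 difference 10.23) and Ugt8a (10.16), which make the hydroxylated galactolipids of myelin.

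Of the 11 regulators and receptors, 9 were higher (16.2% of all genes), 1 (Nab1, -1.21) was lower (16.5% of all genes) and 1 (Adam22) did not pass; of the 8 that passed the filter without the Schwann-like sums, 6 were higher. Sox10, Erbb3 and Lgi4 among the 9 had named the cells; Egr2 (4.79), Pou3f1 (6.42) and Adgrg6 (5.29), a receptor needed for myelination, had not. Relatives of the members did not share their pattern as a group: of the PMP22 family Emp2 was higher (3.66) and Emp1 and Emp3 did not pass. Of the 6 tested genes of the MAL and plasmolipin family, Cmtm5 (10.40) and Cmtm6 (0.78) were higher, Myadm (-3.80), Cmtm3 (-1.79) and Marveld1 (-0.73) were lower, and Cmtm7 did not pass. Cmtm5 passed the filter on low counts through the Schwann-like sums alone, so it had to differ.

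Between the kinds of Schwann-like cell these lists split, where 20.4% of all genes tested were higher in myelinating cells and 19.7% lower. Of the 7 other myelin proteins tested that had not named sub-clusters, 4 were higher in myelinating cells (among them Nfasc, Cd9 and Dag1), 2 were lower (Cadm4, -1.07, an adhesion protein, and Itgb4, -1.05) and Itga6 did not pass. All 6 lipid synthesis genes that had not named sub-clusters were higher (median 2.06). Nfasc and all of these lipid genes but Scd2 passed the filter through the myelinating sums alone, so they had to differ.

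The PMP22 relatives Emp1 (-5.41, SE 0.41) and Emp3 (-5.12, SE 0.58) were lower in myelinating cells, opposite in direction to Pmp22, and Cmtm5 of the MAL family was lower too (-1.27). Of the regulators, Egr2 (2.75) and Pou3f1 (2.95) were higher in myelinating cells, and Lgi4 (-3.95), Erbb3 (-1.50), Adgrg6 (-1.19) and Sox10 (-0.76) were lower. Egr2 had named sub-clusters. Egr2, Pou3f1, Adgrg6 and Emp3 did not pass the low-count filter without the myelinating sums, so no test is read from them. Whether the genes lower in myelinating cells pass it without the non-myelinating sums was not checked.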

How the data were processed

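Per the file headers, the deposited values come from Cell Ranger (6.1.2 for the PLV libraries, 4 for the mixed library); they are whole numbers with unequal totals. The authors deposited raw UMI counts per gene and barcode, made by Cell Ranger with no normalization, per the file headers and the values. GRCm38 is named per the submitters' processing notes. The deposited mixed matrix holds all 896360 barcodes and the PLV matrices 2649 and 730. The members and lists were chosen with earlier results of these data known.

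Barcodes were kept with at least 500 UMIs, 300 genes, at most 15% mitochondrial and 20% haemoglobin UMIs; scrublet removed 10, 3 and 3 predicted doublets, so undetected doublets remain possible. Each library was clustered alone (scanpy 1.11.5, 2000 variable genes, 50 components, 15 neighbours, Leiden resolution 1) without the members, the listed myelin genes and the sub-cluster markers. Clusters needed 3 markers 2-fold above other cells (20 CPM added), and the class with most markers among the 10 leading genes gave the name; this order of choice, the haemoglobin limit, the sub-clustering at 10 components and resolution 0.5, and naming the remaining sub-clusters against the non-myelinating ones were set after clusters were seen.

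UMIs summed per library and class were tested with edgeR 4.0.16 (R 4.3.3, quasi-likelihood, TMM, filterByExpr), with the library as a block except between libraries, and Benjamini-Hochberg adjustment over all genes at 0.05. The library pairs the sums because they come from the same mice. CPM is counts per 1000000 UMIs of the summed cells, with exact Poisson intervals; shares have Clopper-Pearson intervals at 95%. Cells were thinned to 1500 UMIs where detection was compared. Likeness was ranked among genes detected in at least 10% of Schwann-like cells of each library, or with at least 50 UMIs. Named besides the members were list genes past the threshold with at least 10 UMIs, up to 25, largest differences first, and 10 likeness genes by each measure; those that did not pass, or that were added for a comparison between kinds or libraries, were named after their values were seen, and some genes these rules give are not reported here. On simulated counts in which 200 genes differed 4-fold, recovery was 77% between classes (10503 genes), 56.5% between libraries (3722 genes) and 82.5% between kinds (1357 genes). Alternatives were DESeq2 1.42.0, RLE factors, no low-count filter, other cell filters, resolutions and doublet handling, members kept in the clustering, no block, and each library left out.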

Additional observations from a re-analysis of the deposited data

Results flagged for a closer look

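Immune classes entered no comparison, because they were not named in every library, and they held Mbp UMIs. In PLV1, T or NK-like cells had Mbp at 149.6 CPM (23 UMIs in 55 cells), macrophage-like cells at 139.8 CPM (46 UMIs in 86 cells) and B-like cells at 52.0 CPM (5 UMIs in 48 cells). In the mixed library macrophage-like cells had Mbp at 108.5 CPM (19 UMIs in 29 cells), and T or NK-like cells at 31.7 CPM (2 UMIs in 38 cells). The levels resting on over 3 UMIs lie above the 25.6 and 8.11 CPM of all cells outside the Schwann-like class in the same libraries, which include the immune cells. The interval of the B-like level (16.9 to 121 CPM) includes 25.6 CPM. Prx and Ncmap had 0 UMIs in the immune cells of both libraries, where Schwann-like cells of PLV1 and the mixed library held 1124 and 171 Prx UMIs beside 7838 and 763 of Mbp. Near-empty droplets of the mixed library held 121 Mbp and 15 Prx UMIs, which put Mbp at 129 CPM (95% Poisson interval 107 to 154), and haemoglobin-dominated barcodes of PLV1 had Mbp at 159 CPM (76.2 to 292). Those barcodes held 10 Mbp and 8 Pmp22 UMIs, and T or NK-like cells of PLV1 held 23 Mbp and 0 Pmp22 UMIs, macrophage-like cells of PLV1 46 and 82, and T or NK-like cells of the mixed library 2 and 8. What part free RNA has in the immune levels was not tested. As background, the Mbp gene also makes Golli transcripts, which immune cells are known to express, and counts per gene do not separate these; their part in the values was not tested.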

How the results depend on the processing

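Mbp and Pmp22 stayed higher in Schwann-like cells, and Mbp, Pmp22 and Mal in myelinating cells, at an adjusted p under 0.05 under each alternative run, including DESeq2, each library left out and no replicate block. The other members were called in the same settings (7 to 7 members in all, and 7 with no replicate block), but they passed the filter on low counts through the group where they are high, so this says nothing of stability. Over all genes, calls between the kinds of cell numbered 545, 344 with DESeq2, 889 with no filter on low counts and 435 with no replicate block. Calls between classes numbered 3436, and 1784 without PLV1. With 4 of the settings for cells and clusters (at least 1000 UMIs, at most 10% mitochondrial UMIs, Leiden resolution 0.5, predicted doublets kept) pericyte-like cells were not named in every library, so 4 other classes entered. The share of Schwann-like cells ranged from 10.5% to 11.3% (PLV mean) and 3.32% to 3.94% (mixed), each within 1 SD or the interval. The share of Schwann-like cells with 3 or more members was 93.0% (PLV mean) and 86.2% (mixed); it moved to 87.4% for the PLV mean with thinning to 1000 UMIs and to 83.5% in a second draw of that depth, added after seeing the data, and ranged over the settings run from 83.5% to 95.3% and from 69.7% to 89.5%.

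The comparison of the mixed with the PLV libraries changed with the setting. The number of members called was 1 with at least 1000 UMIs per cell (Mal; 120 of 3591 genes), 1 with no filter on low counts (Mbp; 77 of 12977 genes), 0 with DESeq2 (118 of 3722 genes at an unadjusted p under 0.05) and 1 in myelinating cells alone (Mal; 90 of 2659 genes), against 2 members and 147 of 3722 genes; DESeq2 called 2 genes in all. The cause was not tested. The Pmp22 difference turned to -0.018 with no filter on low counts. Mbp ranged from -1.07 to -0.73 and Mal from 0.81 to 1.18, with adjusted p from 0.00019 to 0.999. No paired analysis was possible because the mixed library shares no mice with the PLV libraries, and leaving out a PLV library leaves 1 sample per group and no test. Few non-myelinating cells (13 to 49 per library) limit Mag, Prx and Pllp there.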
